A study of Mus musculus with 81 samples.

Results

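The Hox clusters are the 4 groups of homeobox genes that mammals carry as Hoxa, Hoxb, Hoxc and Hoxd. Their members were taken by symbol, as every protein-coding gene whose name is Hoxa, Hoxb, Hoxc or Hoxd followed by digits, each with its gene model and 1 kb on either side (its window). This gave 39 of 21896 protein-coding genes: 11 Hoxa, 10 Hoxb, 9 Hoxc and 9 Hoxd genes. Their windows held 101 of the 139000 regions in the table of read counts from the aphidicolin experiment, with 29 in Hoxa, 28 in Hoxb, 28 in Hoxc and 16 in Hoxd.

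Hox genes encode homeodomain transcription factors that give cells their position along the head-to-tail axis and along the limbs. Within a cluster all genes are transcribed in the same direction and are numbered by paralog group, and low-numbered genes at one end act early and toward the head while high-numbered genes at the other end act late and toward the tail. In embryonic stem cells the clusters are held silent by Polycomb proteins at promoters that also carry an activating mark, whereas fibroblasts keep a Hox pattern that records the part of the body they came from. Binding by PBX, MEIS and PKNOX proteins, homeodomain cofactors of the TALE class, sharpens the DNA preference of Hox proteins.

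The data are ATAC-seq, in which a transposase cuts and tags accessible DNA, and repli-ATAC-seq, in which freshly copied DNA is labelled with the nucleotide analogue EdU and pulled out. EdU was given at 20 µM for 10 min. Chromatin collected straight after the label is called nascent, chromatin collected 2 h after it, following a 10 µM thymidine chase, is called mature, and the DNA that the capture did not hold is called bulk. Embryonic stem (ES) cells of strain 129/Ola, wild type and at passages 35 to 45, were driven toward epiblast-like cells (EpiLC) with FGF2 and activin A and sampled at 0h, 9h and 48h. Mouse embryonic fibroblasts (MEF, passages 2 to 3, Black6-129X1/SvJ) were all heterozygous for Col1a1::tetOP-OKSM (the doxycycline-driven reprogramming factors), R26-M2rtTA (its activator) and Oct4GFP (a reporter), and all received 2 µg/mL doxycycline. They were sampled at 6h, 12h and 36h, with a bulk list for the nascent arm and another for the mature arm, and at 60h after sorting by CellTrace Violet, a dye diluted at each division, into fractions Q1 to Q4. Which fraction was the brightest is not given in the labels. In the last experiment 5 µg/mL aphidicolin, which blocks the replicative DNA polymerases, was added 4 h after induction for a further 10 h and set against MEF left untreated. Each of the 27 groups had 3 samples. No uninduced MEF were among the groups used here, so every fibroblast value comes from cells already exposed to the factors.

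The labelled cell types were checked against marker genes. All 8 pluripotency genes on the list had a peak in the 0h ES list, while Nanog, Zfp42 and Dppa4 had none in the MEF lists at 6h or 36h. The other 5 did have peaks in MEF, 21 at 6h and 20 at 36h, where the full list held 75 in ES cells at 0h. The 10 fibroblast genes held 103 peaks in the 6h MEF list and 35 in the 0h ES list, where 9 of them had a peak. Of the other lists, the 4 neural genes held 37 peaks in MEF at 6h and 12 in ES cells at 0h, and the 5 epithelial genes 15 and 27. Count totals ran from 41183769 to 49440524 in the 3 untreated libraries and from 55158844 to 78677381 in the 3 aphidicolin libraries, so the treated group was the more deeply sequenced. Every pair of those 6 libraries differed by more than sampling noise, with a chi-square per degree of freedom of 1.88 or more. The count columns carry a group and a number that is tied to no sample, so libraries within a group go by the letters a, b and c. The labels do not say that samples were separate cultures, so a p-value here reflects no more than sample-to-sample spread, possibly of technical origin.

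On the mm10 build the Hoxa cluster covers 105.5 kb of chromosome 6 and has Hoxa13 at one end. The Hoxb cluster spans chr11:96194316-96368254, 173.9 kb from Hoxb13 to Hoxb1, and is the longest. Hoxc lies at chr15:102921131-103036856 (115.7 kb, Hoxc13 to Hoxc4) and Hoxd at chr2:74668225-74765142 (96.9 kb, Hoxd13 to Hoxd1). Some models reach across their neighbours: Hoxa3 is 44009 bp long, Hoxb3 40830 bp and Hoxd3 36279 bp. The Hoxc4 model, 18760 bp long, crosses no other Hox model. Because windows overlap, 11 of the 101 regions belonged to more than 1 Hox gene, and Hoxa5 and Hoxa6 held the same single region. Hoxc12 and Hoxd12 held none.

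Sequence is shown for the promoters of the genes in which a region rose, Hoxb1 and Hoxd11, and of Hoxa10. A falling region overlaps the lower Hoxa10 promoter, and Hoxa10 was chosen after its values were seen. No region of the count table overlaps the Hoxb1 promoter, and other Hox promoters that regions overlap are not shown. Each run is the 250 bases upstream of a start site on mm10 coordinates, 5′ to 3′ on the gene's strand, from RefSeq's GRCm38.p6 annotation, and capitals mark CG dinucleotides, the substrate of DNA methylation and the hallmark of CpG islands. The lower Hoxa10 promoter is chr6:52234940-52235189 and the upper one chr6:52240855-52241104, both on the minus strand. On the plus strand, Hoxb1 is chr11:96365508-96365757, the upstream start of Hoxd11 is chr2:74679308-74679557 and its downstream start is chr2:74682073-74682322.
Hoxa10 lower start: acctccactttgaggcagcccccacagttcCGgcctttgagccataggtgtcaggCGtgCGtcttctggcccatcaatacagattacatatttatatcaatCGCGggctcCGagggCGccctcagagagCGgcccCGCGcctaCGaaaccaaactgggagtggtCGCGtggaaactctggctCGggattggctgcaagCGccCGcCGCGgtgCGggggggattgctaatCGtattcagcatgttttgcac
Hoxa10 upper start: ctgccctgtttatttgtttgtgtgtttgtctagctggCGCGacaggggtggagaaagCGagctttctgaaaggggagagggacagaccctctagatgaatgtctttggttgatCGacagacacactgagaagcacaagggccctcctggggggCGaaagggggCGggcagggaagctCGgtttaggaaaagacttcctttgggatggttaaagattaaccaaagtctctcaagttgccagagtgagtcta
Hoxb1: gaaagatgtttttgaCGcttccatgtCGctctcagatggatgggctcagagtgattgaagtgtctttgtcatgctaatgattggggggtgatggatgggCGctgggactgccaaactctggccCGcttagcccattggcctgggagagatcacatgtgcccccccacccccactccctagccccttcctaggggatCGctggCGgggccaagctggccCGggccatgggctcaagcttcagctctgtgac
Hoxd11 upstream start: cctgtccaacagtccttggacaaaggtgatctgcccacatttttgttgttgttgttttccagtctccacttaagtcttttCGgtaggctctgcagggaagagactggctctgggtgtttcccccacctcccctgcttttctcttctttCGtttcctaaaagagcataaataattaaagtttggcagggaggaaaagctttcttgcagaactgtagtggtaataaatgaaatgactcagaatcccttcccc
Hoxd11 downstream start: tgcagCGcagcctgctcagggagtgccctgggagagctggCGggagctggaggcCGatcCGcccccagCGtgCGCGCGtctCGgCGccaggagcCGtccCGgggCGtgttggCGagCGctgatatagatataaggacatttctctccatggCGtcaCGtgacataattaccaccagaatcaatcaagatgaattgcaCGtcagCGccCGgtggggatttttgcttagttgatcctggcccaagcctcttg
The Hoxd11 starts differ in base composition: the upstream one has 2 CG dinucleotides and 44.8% G or C, the downstream one 20 and 60.4%. The lower Hoxa10 start has 20 and 59.2%, its upper start 7 and 51.6%, and Hoxb1 7 and 59.2%. Promoter sequences were matched for 22 of the 39 genes, with 24 starts, of 21262 starts of 17491 genes in the table; Hoxa4 and Hoxc5 are without one. Over the 300 bases around a start the median number of CG dinucleotides was 14.5 at Hox starts and 13 at all starts. The letters TGATTNAT, an octamer preferred by HOX and PBX pairs, were found on either strand at 2 of 24 Hox starts (Hoxa2 and Hoxd11) and at 2.75% of all starts. The AP-1 letters TGANTCA were found at 1 of 24, the upstream start of Hoxd11, and at 6.99% of all.

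With aphidicolin more Hox regions fell than rose, and the median Hox region was lower. Counts were compared with edgeR's quasi-likelihood test over all regions, with Benjamini-Hochberg adjusted p under 0.05 as the threshold. Of the 101 Hox regions, 37 fell, 2 rose and 62 did not pass. Across all regions 35.9% passed, 17.9% downward and 18.0% upward. Among regions in any protein-coding gene window 36.1% passed, 21.4% downward and 14.7% upward, and at promoters 56.3% passed, 53.2% downward and 3.09% upward. The median log2 fold change of the Hox regions was -0.25 and that of all regions 0.02, and the Hox estimate was below 0 in 90 of 101. The groups of libraries did not overlap in 52 Hox regions, against 46.6% of all regions. In bulk samples such as these, fewer cells with an open region and less opening per cell cannot be told apart.

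By cluster, fewest falls were counted in Hoxd. In Hoxa, 13 of 29 regions fell and none rose (median -0.25). In Hoxb, 11 of 28 fell and 1 rose (median -0.26), and in Hoxc 11 of 28 fell and none rose (median -0.24). In Hoxd, 2 of 16 fell and 1 rose (median -0.12). Both falling Hoxd regions lie in Hoxd3, and no region in the windows from Hoxd13 to Hoxd8 fell. The differences between clusters were not tested.

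**Figure D1:**
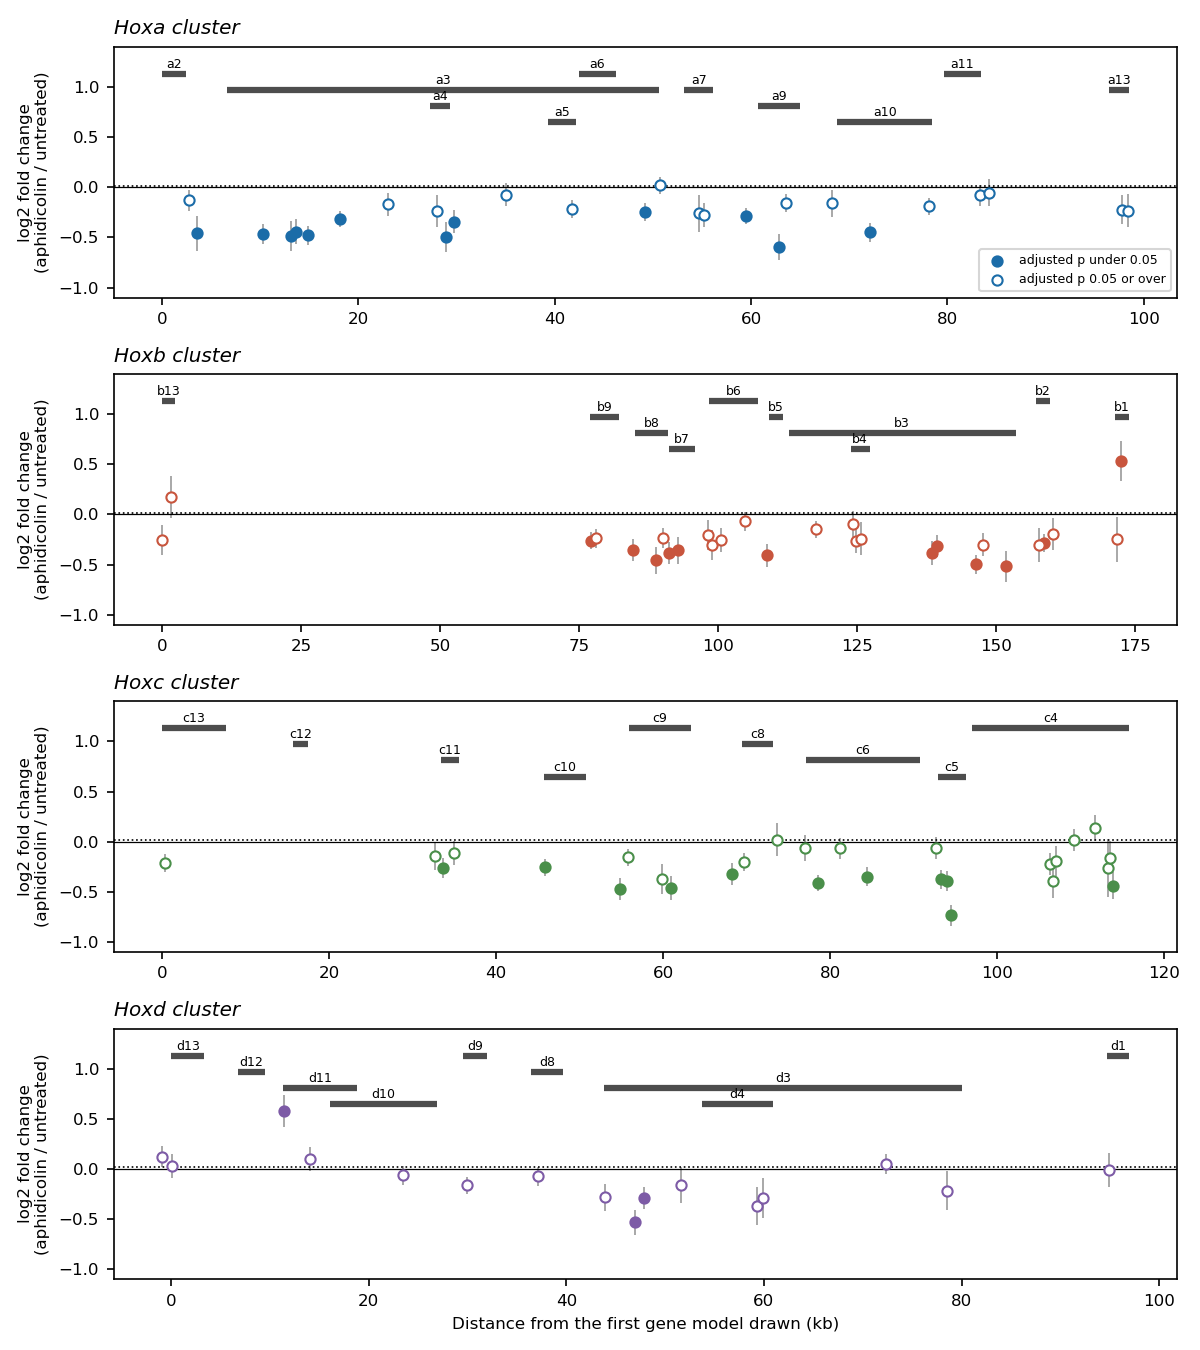
Log2 fold change (aphidicolin over untreated) of Hox regions against its distance in kb from the first gene model drawn, 1 panel per cluster, with gene models as grey bars above the points. Filled points passed (adjusted p under 0.05) and open ones did not, vertical lines are ± 1 SE, and the dotted line is the median of all regions. Most points sit below 0, and the stretch of Hoxd before Hoxd3 holds the 1 rising region and no falling one.

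Library-scaled counts (CPM, computed with TMM factors) summed over each cluster were read beside this. The 29 Hoxa regions held 318.1, 285.2 and 276.2 CPM in untreated libraries a, b and c, and 251.6, 233.7 and 236.2 CPM with aphidicolin. All treated libraries lay below all untreated ones, and the ratio of the means was 0.820. The Hoxb regions held 193.0, 166.3 and 165.1 CPM untreated and 148.9, 143.2 and 142.4 CPM treated (ratio 0.829). The groups were again apart. For Hoxc the values were 225.3, 209.0 and 207.0 CPM against 176.0, 176.0 and 174.0 CPM (ratio 0.820), without overlap. For Hoxd they were 119.4, 98.6 and 94.4 CPM against 105.0, 94.1 and 94.0 CPM (ratio 0.938), and here the groups overlapped. Over all 101 regions the sum was 785.9 ± 61.1 CPM untreated and 658.4 ± 20.0 CPM treated (SD, n = 3 each). Library a was the highest of its group in each cluster, untreated and treated, though in treated Hoxc by little (176.01 against 175.96 CPM). Taken letter by letter, each treated Hoxd sum was below the untreated one, but no label says that equal letters are pairs. Hox regions made up 0.0720% to 0.0789% of untreated counts and 0.0687% to 0.0709% of treated counts.

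In each cluster 1 region changed most among those that passed with groups that did not overlap. The Hoxc example lies inside the model of Hoxc5, a gene of the cervical and upper thoracic level, at chr15:103015473-103015741. Its log2 CPM was 2.64, 2.55 and 2.67 in the untreated libraries and 1.87, 1.97 and 1.81 with aphidicolin, with the treated values all lower. The log2 fold change was -0.73 ± 0.11 (SE; edgeR adjusted p = 0.000148), the largest fall of any Hox region. Exon boundaries were not used here, so whether the region is exonic is not given.

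In Hoxa the largest change was at chr6:52225188-52225343, inside the model of Hoxa9, a posterior gene with a role in blood stem cells. It read 2.16, 1.86 and 1.82 log2 CPM untreated and 1.30, 1.46 and 1.32 treated, again with no overlap. Its log2 fold change was -0.59 ± 0.13 (SE; edgeR adjusted p = 0.00273). This Hoxa9 region had a peak in all 3 untreated lists but in 2 of 3 aphidicolin lists. It thus entered the count table through the untreated group alone, which favours a fall, and the p-value does not allow for that choice. The neighbouring gene Hoxa10, a regulator of the uterus and the lumbar spine, fell at chr6:52234002-52235118, a region that covers 179 of the 250 upstream bases printed for its lower start. There log2 CPM was 4.27, 4.02 and 3.91 untreated and 3.68, 3.67 and 3.52 treated, a change of -0.45 ± 0.10 (SE; edgeR adjusted p = 0.00201). The region over the upper Hoxa10 start changed by -0.19 and did not pass (edgeR adjusted p = 0.0895).

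In Hoxd the region with the largest change rose. It spans the upstream start of Hoxd11, a patterning gene of the forearm and kidney, at chr2:74679514-74679838, and takes in the last 44 of the bases printed for that start. Log2 CPM was 1.02, 0.83 and 0.77 untreated and 1.66, 1.41 and 1.27 treated, with every treated library above every untreated one. The change was 0.58 ± 0.16 (SE; edgeR adjusted p = 0.00842). At the downstream, CG-rich start of the same gene the region changed by 0.10 and did not pass (edgeR adjusted p = 0.533).

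The Hoxb region with the largest change also rose, at chr11:96366703-96366886 inside the model of Hoxb1, which specifies the fourth segment of the hindbrain. It was weak, with log2 CPM of 0.06, -0.30 and -0.26 untreated and 0.50, 0.38 and 0.22 treated. The change of 0.54 ± 0.20 (SE) was close to the threshold (edgeR adjusted p = 0.0422), and it passed in 5 of 12 alternative fits. Neither rising region had a peak in every untreated list: Hoxb1's had one in 1 of 3 and Hoxd11's in 2 of 3, while both had one in all 3 aphidicolin lists. Both thus entered the count table through the aphidicolin group alone, which favours a rise, and their p-values do not allow for that choice.

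**Figure D2:**
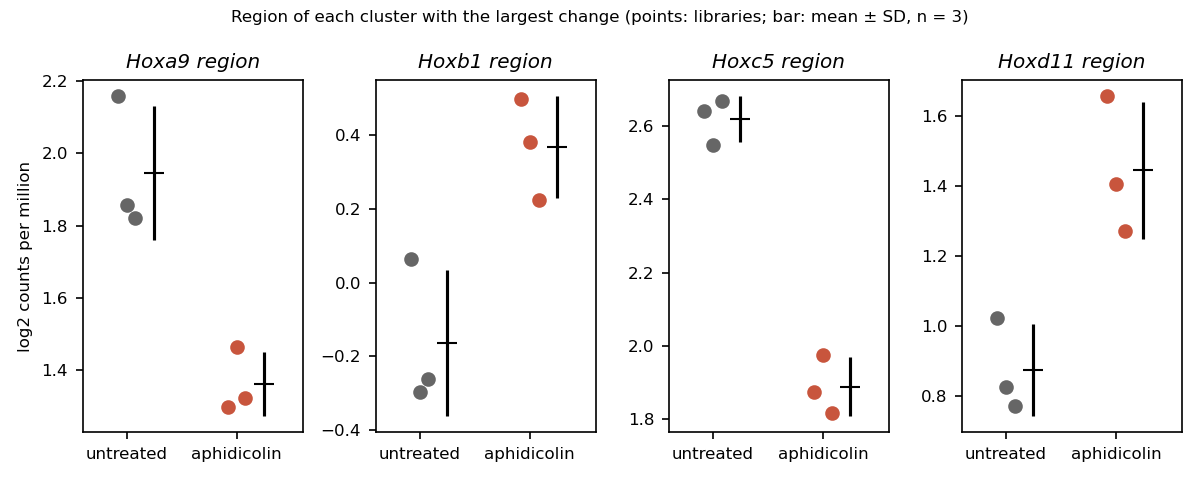
Log2 CPM of the region with the largest change in each cluster, for the 3 untreated and the 3 aphidicolin libraries (points), with mean ± SD bars. The Hoxa9 and Hoxc5 regions are lower and the Hoxb1 and Hoxd11 regions higher in all treated libraries.

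Falling regions were spread over the low, middle and high paralog numbers. Within Hoxa3, whose product patterns the thymus and parathyroid, 8 of 13 regions fell, the largest at chr6:52191059-52191556 (-0.49), which its neighbour Hoxa4 shares. In Hoxb3, falls included chr11:96345964-96346237 (-0.52) and chr11:96340658-96341017 (-0.50). In Hoxd3 they were chr2:74715074-74715199 (-0.53) and chr2:74715850-74716233 (-0.29). A stronger region that fell lies in Hoxc6, a thoracic gene, at chr15:102999082-103000222 (-0.41), where log2 CPM of 5.44, 5.32 and 5.26 untreated stood against 4.98, 4.88 and 4.94 treated. Every treated library was the lower.

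The microRNA gene Mir615 lies within the Hoxc5 window, and its mature arms fall inside chr15:103014865-103015334, a region that fell (-0.39 ± 0.10 SE; edgeR adjusted p = 0.00692). That region read 2.91, 2.75 and 2.79 log2 CPM untreated and 2.46, 2.52 and 2.30 treated, all treated values being lower. Both arms are shown because the region covers them, with the seed (bases 2 to 8) in capitals. They come from RefSeq, on the plus strand, at chr15:103014926-103014947 and chr15:103014969-103014990.
mmu-miR-615-5p: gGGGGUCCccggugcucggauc
mmu-miR-615-3p: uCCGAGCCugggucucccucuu
The arms do not share a seed. Of the other microRNAs of the clusters, Mir196b had 2 regions within 1 kb that did not pass, and Mir10a, Mir10b, Mir196a-1 and Mir196a-2 had none.

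The Hox regions were also set against all regions by strength and position. Their median strength, the mean log2 CPM over the 6 libraries, stood at percentile 64.4 of all regions. Over all regions the median fold change ran from 0.37 in the weakest decile of strength to -0.32 in the strongest, whereas the medians of the Hox regions lay between -0.38 and -0.10 in each decile. At the starts in the promoter table, of 16 Hox regions 1 fell and 1 rose with a median of -0.10, while all 10919 promoter regions had a median of -0.26. The other 85 Hox regions had 36 falls and 1 rise (median -0.26). They are not all away from promoters, since the promoter table holds 22 of the 39 Hox genes. Falling regions over the first bases of the Hoxb9 and Hoxc10 models are among the 85. The 16 lie in Hoxa and Hoxd but for 1 in Hoxc4, and none lies in Hoxb, so this split is mixed with differences between clusters. By the lists that support them, 34 of the 79 Hox regions with a peak in all 6 libraries fell and none rose. When the table was cut to such regions and fitted again, 21 of the 79 fell and none rose, against 15.8% and 16.4% of all 100668 regions kept. Of the 18 present in all aphidicolin lists but not in all untreated ones, 2 fell and 2 rose. Of the 4 with the opposite pattern, 1 fell. Entry through 1 group alone favours a rise in the former and a fall in the latter. Shares of all regions in these list classes under the full fit are not given, so no background stands beside these counts.

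Scaling moved these counts. With library totals in place of TMM factors, 11 Hox regions fell and 3 rose, against 7.99% and 30.3% of all regions, and the all-region median became 0.18. The gap between the Hox median and the median of all regions was -0.27 under both. Under offsets that follow strength, 29 Hox regions fell and none rose, against 10.7% and 11.2% of all regions. Without aphidicolin library c, 16 Hox regions fell (11.5% of all), and without aphidicolin library b 19 did (10.9% of all).

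Summing counts over a whole window gives 1 value per gene, on a scale of its own, since TMM factors were taken from the gene windows. On it, 6 Hox genes of 37 were lower, 2 higher and 29 did not pass, against 24.4% lower and 22.5% higher of 16811 windows (46.9% in all). The lower genes included Hoxa3 (-0.11), Hoxb3 (-0.10), Hoxc5 (-0.20), Hoxc6 (-0.15) and Hoxc9 (-0.15). The higher genes were Hoxd11 and Hoxd13, both of which shape the distal limb. Hoxd11 read 3.41, 3.16 and 3.11 log2 CPM untreated and 3.74, 3.68 and 3.56 treated, a log2 fold change of 0.42 ± 0.10 (SE; edgeR adjusted p = 0.00539). Hoxd13, at the end of its cluster, read 4.14, 3.90 and 4.04 untreated and 4.33, 4.29 and 4.25 treated (0.26 ± 0.08 SE; edgeR adjusted p = 0.0150). Neither gene's groups overlapped. With the factors of the region table, an alternative chosen after seeing the data that moves the median of all windows to -0.20, neither passed (Hoxd11 0.23, edgeR adjusted p = 0.139; Hoxd13 0.07, edgeR adjusted p = 0.566), no Hox window rose and 17 of 37 fell, against 7.69% and 51.6% of all windows. With offsets that follow strength no Hox window was higher either and 8 were lower, against 20.3% and 19.8% of all windows. Without untreated library b only 2 Hox windows passed, 1 lower and 1 higher, against 16.4% and 16.6% of all windows. Without aphidicolin library b, c or a the Hox windows that passed were 3, 4 and 5, against 32.51%, 33.22% and 40.95% of all windows.

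By position, the windows gave 3 lower of 8 genes with paralog numbers 1 to 3, 2 lower of 15 with numbers 4 to 8, and 1 lower and 2 higher of 14 with numbers 9 to 13. In each cluster the extremes were Hoxa11 (0.12) and Hoxa4 (-0.18), Hoxb1 (0.35, edgeR adjusted p = 0.106) and Hoxb5 (-0.21), Hoxc4 (0.03) and Hoxc5 (-0.20), and Hoxd11 (0.42) and Hoxd4 (-0.14), all as log2 fold changes of windows. Of these only Hoxc5 and Hoxd11 passed. The Hoxc5 window read 5.01, 5.04 and 5.11 log2 CPM untreated and 4.83, 4.94 and 4.79 treated, with all treated values lower (edgeR adjusted p = 0.0171). The window sums of Hoxa11 and Hoxb1 turned below 0 under offsets that follow strength.

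The windows of genes that act with or on Hox genes were read on the same scale. Over all windows 22.5% were higher and 24.4% lower, the shares to set beside the counts here and in the next paragraph. With the factors of the region table the median of all windows moved from -0.005 to -0.20. Rises of about that size depend on the scale, and these lists were not read on the other one. Among 9 TALE cofactors, 3 were higher and 1 lower. The higher ones included Meis2 (0.24) and Meis1 (0.20), and the lower one was Pknox1 (-0.11). Meis2 read 6.77, 6.76 and 6.81 log2 CPM untreated and 7.01, 7.01 and 7.05 treated (edgeR adjusted p = 0.000289). Of 18 Polycomb genes, 8 were lower and 1 higher. The lower ones included the chromodomain genes Cbx8 (-0.36) and Cbx7 (-0.20), which read a Polycomb mark, and the rise was in Jarid2 (0.18), a partner that recruits the complex. Cbx8 read 6.05, 6.07 and 5.93 untreated and 5.74, 5.60 and 5.65 treated (edgeR adjusted p = 0.000374), with groups apart. Of 8 Trithorax and demethylase genes, Men1 (-0.18), Kdm6b (-0.17) and Kmt2b (-0.15) were lower and none was higher.

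Among 10 upstream regulators and retinoid genes, 4 were higher and 1 lower. They included Cdx4 (0.61) and Cdx2 (0.45), which switch on central Hox genes, and the retinoic acid receptor gene Rarb (0.34), while Rarg (-0.15) was lower. Cdx4 was weak, at 0.48, 0.43 and 0.84 log2 CPM untreated and 1.07, 1.16 and 1.31 treated. Of 12 other homeobox genes and cluster neighbours, the ParaHox genes Pdx1 (0.81) and Gsx1 (0.21) and the Hoxd neighbours Evx2 (0.26) and Mtx2 (0.20) were higher, and Cbx5 (-0.19), next to Hoxc, was lower. Evx2, which lies beside Hoxd13, read 3.51, 3.22 and 3.26 log2 CPM untreated and 3.57, 3.60 and 3.62 treated (edgeR adjusted p = 0.0378). Markers of other cells were read too, beside 22.5% higher and 24.4% lower of all windows. Of 6 endothelial genes 3 were higher and none lower, and of 4 macrophage and blood genes tested 1 was higher and 2 lower. Of the 10 fibroblast genes, 5 were higher and 3 lower. The summed endothelial level was 7.17 to 7.32 log2 CPM untreated and 7.46 to 7.48 treated, and the summed macrophage and blood level 7.14 to 7.25 and 6.97 to 7.04. Of the 4 neural genes 2 were higher and 1 lower, of 2 muscle genes tested 1 was higher, of 4 epithelial genes tested 1 was lower, and of 5 pluripotency genes tested 2 were higher and 2 lower. No region lay in the windows of Tyrobp, Adgre1, Myf5, Krt5, Nanog, Zfp42 or Dppa4. The part of other cells in the Hox differences was not tested.

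The number of Hox peaks called in each library lay in the same range in both groups. Hox windows held 105, 102 and 96 peaks in untreated replicates 1, 2 and 3, and 103, 107 and 103 with aphidicolin. The means were 101 ± 4.58 and 104 ± 2.31 (SD, n = 3 each), and the groups overlapped (two-sided exact permutation p = 0.4, where 3 against 3 cannot go below 0.1). The treated lists were longer, with 148292 to 163947 peaks against 116939 to 129546. Per 100000 peaks of the list, a measure chosen after seeing the data, the Hox windows held 81.1, 80.3 and 82.1 untreated and 69.5, 65.3 and 65.1 treated, without overlap (exact permutation p = 0.1, the smallest possible). In each library 36 to 39 Hox genes had a peak.

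Peak lists made from each group's samples together placed peaks at nearly every Hox gene in bulk chromatin. There is 1 list per group and hence no replicate check, and peak scores are the authors'. In ES bulk lists all 39 Hox genes had a peak at 0h, 9h and 48h, against 80.1%, 79.9% and 81.0% of all genes. In MEF bulk lists of the nascent arm 37, 38 and 36 had one at 6h, 12h and 36h (77.8%, 79.0% and 76.7% of all genes), and in those of the mature arm 38 at each time (78.7%, 78.2% and 76.9%). Over the 9 bulk lists, 36 genes had a peak in every one. The exceptions were Hoxb1 (7 of 9), Hoxd12 (8 of 9) and Hoxc12 (3 of 9). Hoxc12, a posterior gene, had 2, 1 and 2 peaks in the ES lists and none in any MEF list. Among the 22 Hox genes with a promoter in the table, 13 to 15 had a bulk peak on it, where 62.9% to 67.7% of all promoter genes did.

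**Figure D3:**
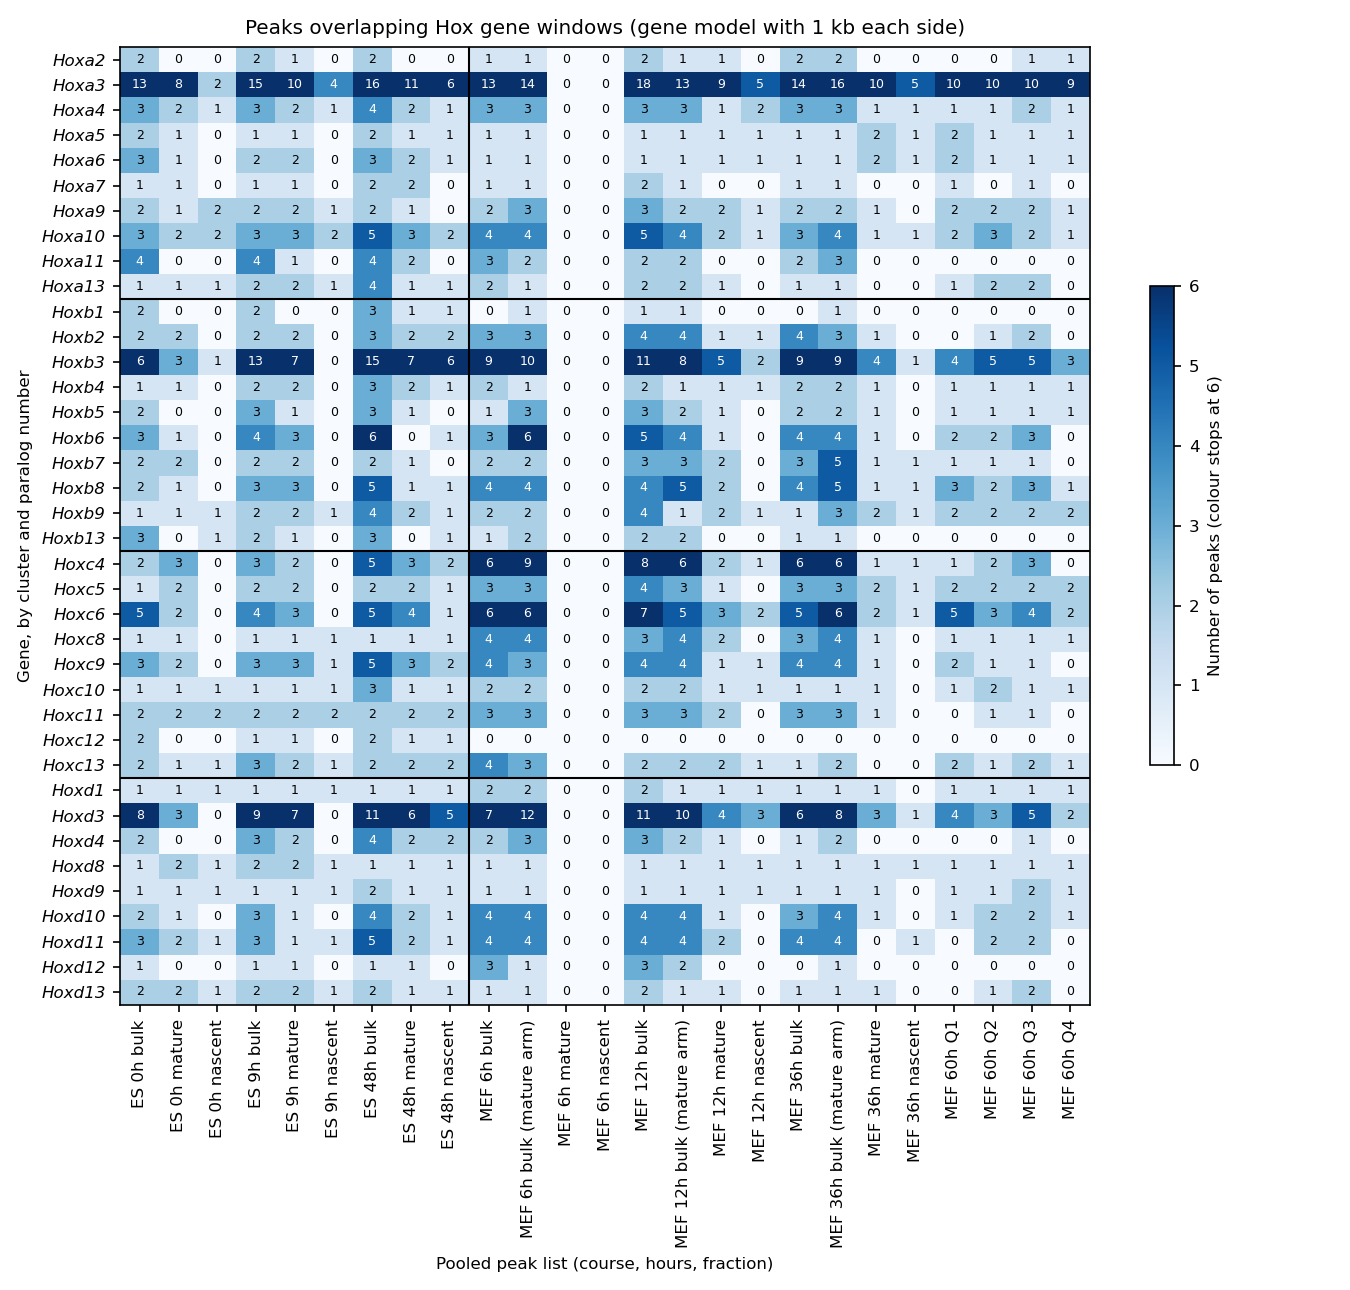
Number of peaks (colour and digit) in the windows of Hox genes, ordered by cluster and paralog number, in each of the 25 pooled lists. Bulk columns are filled for nearly all genes, the columns of nascent and mature chromatin in MEF at 6h are empty, and Hoxa3, Hoxb3 and Hoxd3 hold the most peaks.

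Peaks were unevenly shared among genes and clusters. At 0h in ES bulk the clusters Hoxa to Hoxd held 27, 22, 19 and 18 peaks, and in MEF bulk at 6h 29, 23, 31 and 21. The gene with most peaks was Hoxa3 in Hoxa (13 in both lists), Hoxb3 in Hoxb (6 and 9) and Hoxd3 in Hoxd (8 and 7). Each has the longest model of its cluster. In Hoxc it was Hoxc6 (5 in ES, and 6 in MEF, where Hoxc4 also had 6). At the ends of the clusters, in those same 2 lists, Hoxa13 had 1 and 2 peaks, Hoxb13 3 and 1, Hoxb1 2 and 0, Hoxc13 2 and 4, Hoxc4 2 and 6, Hoxd13 2 and 1 and Hoxd1 1 and 2. From ES to MEF, 8 of the 9 Hoxc genes had more peaks and 1, Hoxc12, had fewer. Of all 39 Hox genes 20 had more and 10 fewer, against 29.1% and 34.8% of all genes.

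ES cells and fibroblasts had many Hox peaks in common. Of 86 Hox peaks in ES bulk at 0h, 64 (74.4%, Wilson 95% interval 64.3 to 82.5) overlapped a peak in MEF bulk at 6h, against 33.4% of all ES peaks. In the other direction 68 of 104 (65.4%, 55.8 to 73.8) did, against 29.5%. These intervals, like those that follow, cover counting error only. By cluster, the ES share ran from 15 of 22 in Hoxb (68.2%) to 15 of 19 in Hoxc (78.9%), and the intervals of all clusters overlapped.

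Over the conversion to EpiLC the lists held more Hox peaks at later times, while the bases covered were nearly the same. Bulk Hox peaks numbered 86, 104 and 132 at 0h, 9h and 48h and covered 65.5, 65.4 and 64.7 kb. Their median width was 628.5, 505.5 and 370.5 bp in that order, and that of all peaks 438, 370 and 295 bp. Between 0h and 48h, 22 Hox genes had more peaks, 0 fewer and 17 the same number, against 29.4% of all genes with more and 26.5% with fewer. The gain was 5 of 11 genes in Hoxa, 8 of 10 in Hoxb, 4 of 9 in Hoxc and 5 of 9 in Hoxd. Hoxb3 went from 6 to 15 peaks and Hoxb6 from 3 to 6.

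Few ES Hox peaks were lost. Only 7 of 86 bulk peaks at 0h had no overlap at 48h (8.14%, 4.00 to 15.9), against 38.9% of all peaks, and 41 of 132 at 48h had none at 0h (31.1%, 23.8 to 39.4), against 34.9%. By step, 7 of 86 were lost and 21 of 104 gained from 0h to 9h (21.4% and 19.6% of all), and 8 of 104 were lost and 28 of 132 gained from 9h to 48h (34.2% and 31.1% of all). One of the 7 peaks lost by 48h, chr2:74679640-74680082 in Hoxd11, overlaps the Hoxd11 region that rose with aphidicolin in MEF. Gained peaks at 48h included chr11:96278893-96279032 in Hoxb8 and chr2:74715054-74715212 in Hoxd3, each of which coincides with a region that fell with aphidicolin. These overlaps were noticed in the lists and were not tested. No Hox window went from no peak to a peak, or back, where 2.46% of all genes gained and 1.55% lost their only peaks.

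During reprogramming more Hox peaks were lost than gained in both arms of the full lists, but not at equal list length. In the nascent-arm bulk lists 16 of 104 Hox peaks at 6h had no overlap at 36h (15.4%, 9.70 to 23.5), against 38.5% of all, and 11 of 93 at 36h had none at 6h (11.8%, 6.73 to 20.0), against 20.6%. In the mature-arm lists the losses were 21 of 116 (18.1%, 12.2 to 26.1; 38.9% of all) and the gains 8 of 110 (7.27%, 3.73 to 13.7; 12.6% of all). By step in the nascent arm, 3 of 104 were lost and 28 of 130 gained from 6h to 12h (12.6% and 20.2% of all), and 32 of 130 lost and 4 of 93 gained from 12h to 36h (35.6% and 9.09%). In the mature arm the steps gave 17 of 116 lost and 7 of 106 gained (19.1% and 8.85%), then 10 of 106 lost and 7 of 110 gained (27.1% and 7.13%). When the lists were cut to the same number of top-scored peaks the Hox losses were 7.41% and 6.10% and the gains 22.6% and 26.4%. Of all peaks in the cut lists, 30.5% and 25.8% were lost and 30.2% and 25.04% gained. Among Hox peaks the excess of losses thus turned into an excess of gains in both arms. The cut left 81 of 104 and 82 of 116 Hox peaks at 6h but all 93 and 110 at 36h, which favours gains over losses. Lists from the same time give a measure of list-to-list difference. At 6h, 3 of 104 and 20 of 116 Hox peaks were unshared between the arms (2.97% and 16.0% of all), at 12h 17 of 130 and 3 of 106 (14.1% and 8.40%), and at 36h 4 of 93 and 16 of 110 (8.26% and 11.8%).

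Per gene, 14 Hox genes had fewer and 6 more peaks at 36h than at 6h in the nascent arm, against 34.4% and 14.3% of all genes, and in the mature arm 11 had fewer and 9 more, against 40.2% and 8.91%. In Hoxd no gene had more peaks at 36h in either arm. Hoxd12, a digit gene, was the 1 window to lose its only peaks, from 3 to 0, against 2.33% of all genes. That was so in the nascent arm alone: in the mature arm it had 1 peak at both times, and where 2.53% of all genes lost theirs no Hox gene did.

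The lists from newly copied chromatin were shorter than the bulk lists and held fewer Hox peaks. In ES cells they had 18587 to 27693 nascent and 66518 to 94946 mature peaks, against 152932 to 154758 in bulk, and in MEF at 12h and 36h 15200 to 20968 nascent and 38418 to 62704 mature peaks, against 137173 to 199056. In ES cells 17 Hox genes had a nascent peak at 0h, 17 at 9h and 32 at 48h, against 57.0%, 54.8% and 66.5% of all genes. In mature chromatin the numbers were 31, 38 and 36, against 72.9%, 75.9% and 76.3%. In MEF at 12h and 36h, 20 and 16 Hox genes had a nascent peak (54.6% and 52.4% of all genes) and 33 and 28 a mature one (69.2% and 64.9%). At 6h no Hox gene had a peak in either list, which were short, with 3222 nascent and 14281 mature peaks and 12.9% and 38.6% of all genes. The mature lists were also cut to equal length within a course, a step chosen after seeing the data. Then 31, 33 and 36 Hox genes had a mature peak in ES cells at 0h, 9h and 48h (72.9%, 72.6% and 75.3% of all genes). In MEF 18 had one at 12h and 28 at 36h (61.8% and 64.9%), the reverse of the order in the full lists.

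Nascent peaks were unevenly spread along the clusters. At 0h in ES cells nascent peaks were found at 4 of 8 genes of paralog numbers 1 to 3, 2 of 15 of numbers 4 to 8 and 11 of 16 of numbers 9 to 13. At 9h the counts were 3, 3 and 11, and at 48h 7, 12 and 13. Mature peaks were at 6, 13 and 12 of these genes at 0h, at 7, 15 and 16 at 9h, and at 7, 14 and 15 at 48h. The central genes were thus the ones mostly without a nascent peak at 0h and 9h, among them all of Hoxb4 to Hoxb8 and of Hoxc4 to Hoxc6, which had mature peaks in most cases. When the 3 nascent lists were cut to equal length, a step chosen after seeing the data, 22 Hox genes had a peak at 48h (7, 4 and 11 by position, 59.9% of all genes) and 17 at 0h. The larger count of central genes at 48h moved with the length of the list.

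**Figure D4:**
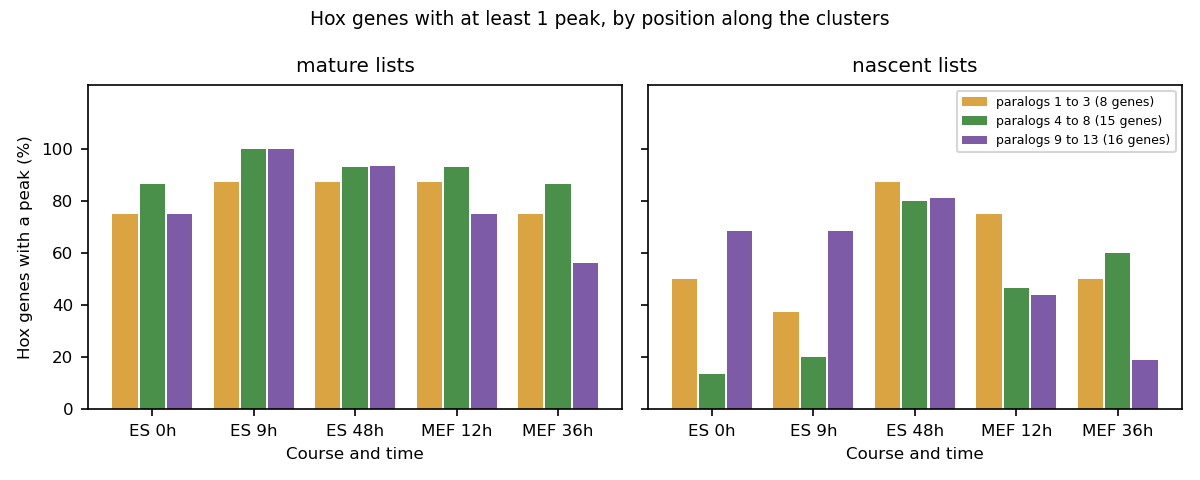
Share of Hox genes (%) with at least 1 mature peak (left) or nascent peak (right), as bars for 3 bands of paralog number, for ES at 0h, 9h and 48h and MEF at 12h and 36h. In the ES lists at 0h and 9h the band 4 to 8 is the lowest in nascent chromatin, with 2 and 3 of 15 genes.

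In MEF the order of the bands was not the same at each time. Nascent peaks were at 6 of 8, 7 of 15 and 7 of 16 genes at 12h and at 4, 9 and 3 at 36h, in the same order of paralog number, and mature peaks at 7, 14 and 12 and at 6, 13 and 9. At 36h the posterior genes with a nascent peak were Hoxa10, Hoxb9 and Hoxd11. At equal list length 11 genes had a nascent peak at 12h (3 of 8, 3 of 15 and 5 of 16, so that the central band was the lowest there) and 16 at 36h. Over all nascent lists Hoxa2, Hoxa7, Hoxa11, Hoxb5 and Hoxd12 had no peak. Hoxa3 had the most, with 2, 4 and 6 in ES cells and 5 and 5 in MEF at 12h and 36h.

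Counted by peak, Hox bulk peaks were found again in newly copied chromatin at a share that varied with time. In ES cells a nascent peak overlapped 20 of 86 at 0h (23.3%, 15.6 to 33.2; 12.2% of all bulk peaks), 21 of 104 at 9h (20.2%, 13.6 to 28.9; 11.7%) and 50 of 132 at 48h (37.9%, 30.1 to 46.4; 17.4%). A mature peak overlapped 47 of 86 (54.7%, 44.2 to 64.7; 42.4%), 74 of 104 (71.2%, 61.8 to 79.0; 59.3%) and 76 of 132 (57.6%, 49.0 to 65.7; 47.8%). Mature chromatin thus held more of them than nascent chromatin at each time, and the mature lists were the longer ones.

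In MEF a nascent peak overlapped 25 of 130 Hox bulk peaks at 12h (19.2%, 13.4 to 26.8; 10.3% of all) and 16 of 93 at 36h (17.2%, 10.9 to 26.1; 10.7%). A mature peak overlapped 53 of 106 (50.0%, 40.6 to 59.4; 34.5%) and 40 of 110 (36.4%, 28.0 to 45.7; 26.3%). At 6h the counts were 0 of 104 nascent (a count of 0 allows a share of up to 2.88%; 1.72% of all) and 1 of 116 mature (0.862%, 0.152 to 4.72; 6.91% of all). The order of Hox peaks and all peaks depended on weak peaks at some times. Among nascent peaks scoring 100 or more, the Hox share was below that of all peaks at 12h in MEF (4.62% and 6.80%), at 36h in MEF (2.15% and 7.27%) and at 9h in ES cells (4.81% and 7.28%). It was above at 0h (10.5% and 8.02%) and 48h (18.2% and 10.6%) in ES cells. Among mature peaks of such scores it was above at 12h in MEF (35.8% and 26.5%) and at each ES time, by least at 48h (38.6% and 38.2%). At 36h in MEF the mature share was below (18.2% and 19.1%). No Hox peak was found at such scores at 6h in MEF.

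**Figure D5:**
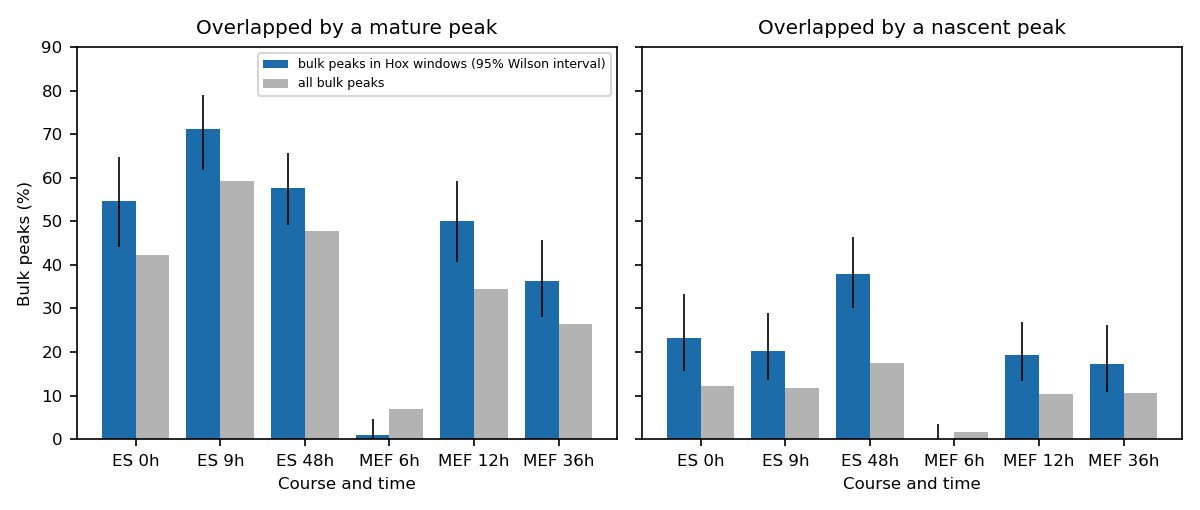
Share of bulk peaks (%) overlapped by a mature peak (left) or a nascent peak (right) at each time, for Hox peaks with Wilson 95% intervals and for all bulk peaks (grey bars). The Hox bars are the taller at every time but 6h in MEF.

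Found peaks were the wider and higher-scoring ones. Among Hox bulk peaks above the median score of their list, 19 of 52 were found in nascent chromatin at 0h in ES cells (36.5%; 23.8% of all such peaks) and 39 of 64 at 48h (60.9%; 31.6%). Below the median score the counts were 1 of 34 and 11 of 68. At 0h the median width was 1173 bp for Hox peaks found in nascent chromatin and 554 bp for the others, and at 48h 630.5 and 314.5 bp. In the MEF lists at 12h it was 898 and 335 bp. The median score percentile of Hox peaks in bulk lists ran from 45.2 to 58.8. Among the 3222 highest-scored peaks of the 0h and 48h ES bulk lists and the 6h and 36h MEF bulk lists none lay in a Hox window. Such peaks lay at 11.0% to 14.4% of all genes. The 3222 are a small part of lists of 137173 to 177275 peaks, so a count of 0 among 86 to 132 Hox peaks says little.

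In the sorted fractions at 60h the number of Hox genes with a peak was highest in Q3 and lowest in Q4. A peak was found at 28 Hox genes in Q1, 31 in Q2, 34 in Q3 and 23 in Q4, against 71.2%, 70.5%, 71.5% and 66.8% of all genes. Their windows held 51, 54, 64 and 34 peaks covering 17.1, 20.2, 24.6 and 8.85 kb. The Q4 list was the shortest, with 57762 peaks, and Q3 the longest, with 73518. Genes of paralog numbers 4 to 8 had a peak in 14, 13, 15 and 10 of 15 cases, and those of numbers 9 to 13 in 9, 12, 12 and 7 of 16. A peak in all 4 fractions was found at 22 Hox genes, and Hoxa11, Hoxb1, Hoxb13, Hoxc12 and Hoxd12 had none in any. The 4 fractions have 1 list each, so these differences have no replicate check.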

How the data were processed

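The authors deposited raw read counts per region for the 6 libraries of the aphidicolin experiment, and peak lists with coordinates and a caller's score for every peak. Of these, 25 stand for a group each and 6 for a library each of the aphidicolin experiment. Per the submitters' processing notes, the build was mm10 and the tools were MACS2 2.2.0, Bowtie2 2.2.5, bedtools 2.26.0, SAMtools 1.4.1, cutadapt 2.2.0 and bcl2fastq 2.19.1. Neither the read counter nor any shift for the transposase cut is stated there. Per the peak names in the deposited files, reprogramming peaks were called after merging replicates, and those of Q1 to Q4 are consensus peaks. How ES lists were pooled is not stated in these sources. The nascent-arm bulk lists of the reprogramming course were assigned by name and by elimination. Regions of the count table are those with a peak in all 3 lists of a group.

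Gene models, promoters with their strand and microRNAs came from RefSeq tables of GRCm38.p6 (coordinates as in mm10). A peak or region belonged to a gene when it overlapped its window by at least 1 bp. The quasi-likelihood functions of edgeR 4.0.16 (glmQLFit, glmQLFTest) in R 4.3.3, after TMM scaling and filterByExpr at its defaults, tested the counts, two-sided, over all 138996 regions or 16811 gene windows that passed the filter, with p-values adjusted by Benjamini-Hochberg and called under 0.05. All 101 Hox regions passed the filter, and 37 of 39 Hox genes had a region. Log2 CPM values used a prior count of 2. On simulated counts of 39999 regions for this comparison the test recovered 50 of 50 regions at folds of 0.5 and of 2, 26 of 50 at 0.67 and 28 of 50 at 1.5, with 12 false calls. Peaks per library were compared by exact permutation. Shares have Wilson 95% intervals for counting error, and a count of 0 is taken to allow 3.

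The members and all gene lists were chosen with earlier results of these data known. Named regions are, per cluster, the called region with the largest absolute change and groups that did not overlap. Named windows are the highest and lowest of each cluster; list genes are the cluster ends, the genes with most peaks and those that gain or lose their only peaks. Other genes are members of a list that passed, or were chosen after their values were seen. Results of 3 genes are not reported here, and 1 of them is left out of the plots by gene, though all stay in the counts. Alternatives were library totals, strength-dependent (loess) offsets, DESeq2 1.42.0, other windows, list lengths, score and overlap minimums, and leaving out each library.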

Additional observations from a re-analysis of the deposited data

How the results depend on the processing

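Across 405 alternative values, 275 were kept, 101 moved in size, 13 no longer passed the threshold, 8 newly passed it and 8 turned in sign. What counted as kept differed by kind of value. Counts of passing members were judged by size alone, and named regions and windows by sign and side of the threshold. Library differences were judged by sign alone, and values from peak lists by the Wilson interval of the main value. Of the 101 Hox regions, 14 passed with library totals (11 lower), against 38.3% of all regions (7.99% lower). In a refit of regions with a peak in all 6 lists 21 of 79 passed (21 lower, 0 higher), against 32.2% of all (15.8% lower). With strength-dependent offsets 0 were higher and with DESeq2 1, against 11.2% and 14.3% of all regions. Leaving out each library gave 17 to 46 passing regions, 16 to 45 lower and 1 to 2 higher. Over all regions the share that passed moved too, from 21.92% to 41.68% (10.92% to 20.15% lower and 10.99% to 21.53% higher). Of the Hox windows, 5 passed with library totals (3 lower, 2 higher), against 20.7% lower and 24.5% higher of all windows. With the region table's scaling, chosen after seeing the data, 17 passed (17 lower, 0 higher), against 51.6% and 7.69% of all. Higher Hox windows numbered 0 with strength-dependent offsets, 1 with the gene model alone and 4 with 5 kb on each side. The shares of all windows were 20.3%, 21.8% and 23.8%. Leaving out each library gave 2 to 8 passing windows, 1 to 4 higher and 1 to 5 lower, against 32.51% to 51.25% of all windows passing. The Hox count was 2 without untreated library b, 3 without aphidicolin library b, 4 without aphidicolin library c and 5 without aphidicolin library a. Of all windows 32.97%, 32.51%, 33.22% and 40.95% passed in those fits. Turned in sign were the windows of Hoxa11 (-0.0296 with strength-dependent offsets, -0.0713 with the region table's scaling), Hoxb1 (-0.0616 with strength-dependent offsets) and Hoxc4 (leaving out each library, -0.0122 without untreated library b to 0.0673 without untreated library a; -0.0751 with 5 kb, -0.165 with the region table's scaling), none of which had passed. Hox peaks per library differed by -19 at equal list lengths and by -14.57 per 100000 peaks (chosen after seeing the data), each at the smallest exact permutation p of 0.1; leaving out each library gave differences of 0.833 to 5.33. Pairing the per-library lists by replicate number, as a replicate block, left the difference at 3.33 peaks (exact permutation p = 0.5, smallest possible 0.25). The same numbers run over both groups of count columns but are tied to no sample, so no block was fitted to them. Cut to the 3222 peaks of the shortest list, the bulk lists of ES at 0h and 48h and MEF at 6h and 36h had 0 Hox genes with a peak. Of all genes 11.0% to 14.4% had one there. With 5 kb on each side, MEF had 39 at 6h and 38 at 36h, against 81.8% and 80.7% of all genes. With scores of 100 or more, shares found again were 41.9% (mature) and 10.5% (nascent) in ES at 0h, against 33.4% and 8.02% of all peaks. In MEF at 12h they were 35.8% and 4.62%, against 26.5% and 6.80%. Gains in ES were 40.2% at a reciprocal overlap of 25%, against 40.2% of all peaks. At equal list lengths MEF gains were 22.6% and 26.4% and losses 7.41% and 6.10% in the nascent and mature arms. Of all peaks 30.2% and 25.04% were gained and 30.5% and 25.8% lost there. Other causes of these shifts were not tested. Depth limits weak regions: the lowest count in any Hox region and library was 12.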

Other observations

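Peak numbers also moved between the reprogramming times at single genes that the comparisons above do not describe. In the nascent arm Hoxa3 had 13, 18 and 14 bulk peaks at 6h, 12h and 36h, and in the mature arm 14, 13 and 16. Hoxb7, a trunk gene, had 2, 3 and 3 in the first and 2, 3 and 5 in the second. Hoxd3 had 7, 11 and 6 in the first and 12, 10 and 8 in the second, so the arms did not give the same order of times. Hoxd8 had 1 bulk peak and 1 nascent peak in every list of those kinds from ES cells, and 1 bulk peak in every MEF bulk list, except for 2 bulk peaks in ES cells at 9h. Hoxd9 had 1 peak in each MEF bulk list.

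Hoxc11, a gene of the hindlimb, had 2 bulk, 2 mature and 2 nascent peaks at each ES time. In MEF it had 3 bulk peaks at each time in both arms, 2 mature and 0 nascent peaks at 12h, and 1 mature and 0 nascent peaks at 36h. These are counts of 1 list each, with no test.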
